A study of Mus musculus with 15 samples.

Results

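The DQD form of Twist1 was compared with an empty vector in Myc-CaP cells, a prostate cancer line from a mouse carrying a Myc transgene. The comparison rests on 6 of the 15 arrays of the series, the 3 labelled DQD and the 3 labelled VEC, chosen by title. DQD cells had received Twist1 DQD and VEC cells the vector alone, and the cells of both groups had been transfected, selected and grown to confluence before RNA was taken. The other 9 arrays hold 3 each of the AQA form, the F191G form and wild-type Twist1 (WT), and they entered the model to give a shared estimate of the spread. The labels do not say whether replicates A, B and C came from separate cultures or clones, so the p-values rest on the scatter of these arrays alone, and that may be technical. Values are log2 expression values from Affymetrix Mouse Gene 1.0 ST arrays, with n = 3 arrays per group throughout and 19297 genes tested. Differences are DQD minus VEC on the log2 scale with their standard error (SE). A gene is called changed where its adjusted p is under 0.05 (limma with array batch as a term, Benjamini-Hochberg adjustment over all genes).

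Twist1 is a basic helix-loop-helix (bHLH) transcription factor that pairs with E proteins, binds E-box DNA and is known for driving epithelial-mesenchymal transition (EMT), the loss of epithelial junctions and gain of motility. The labels do not spell out the letters DQD and AQA. In published work on Twist1, DQD replaces a phosphorylated threonine and serine of the bHLH domain with aspartate, an acidic residue used to mimic phosphate, and AQA replaces them with alanine. F191G changes the Twist box, a transactivation domain near the protein's end. Most of the genes that rose furthest in DQD cells were interferon-stimulated genes. In the type I interferon pathway, receptor signalling brings together a complex that holds Stat2 and Irf9 and binds the interferon-stimulated response element (ISRE), a short promoter sequence, and turns on antiviral genes.

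The ISRE letters stood in the promoters of some of the genes that rose together in DQD cells, and those stretches are shown. The letters searched were GAAA, any 2 bases and GAAA again, on both strands, in RefSeq windows of 300 bases (250 before and 50 after the annotated start, mouse build GRCm38.p6). Among the genes tested with a window, 592 of 15161 (3.9%) held the letters, as did 13 of the 30 interferon list genes with a window (43.3%). Of the 67 genes that rose in DQD and had a window, 8 held them (11.9%), against 1 of the 60 that fell (1.67%). Of the interferon list genes that rose 9 had a window, and 4 of these held them (44.4%), close to the share over the whole list. The windows of 13 risen genes were looked at singly. These were the risen interferon list genes with a window, to which Gbp7, Samd9l, Helz2 and Folh1 were added. Of these 13, 8 held none, namely Folh1, Helz2, Herc6, Irf9, Oasl2, Samd9l, Trim25 and Xaf1. Risen genes outside these 13 that held the letters are not shown. Of 2 other motifs searched on both strands, the letters TTC, any 3 bases and GAA (the gamma-activated site) stood in 10.4% of the genes that rose, 8.33% of those that fell and 9.01% of those tested. The E-box letters CATCTG stood in 22.4% of the genes that rose, 21.7% of those that fell and 15.9% of those tested. A match is a description and not a measured binding site. The stretches below run 5′ to 3′ on the gene's own strand, with the ISRE letters of either strand in capitals.
Ifit3: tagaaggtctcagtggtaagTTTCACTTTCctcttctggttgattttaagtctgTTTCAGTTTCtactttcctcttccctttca
Gbp7: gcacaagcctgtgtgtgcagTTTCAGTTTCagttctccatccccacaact
Ifitm3: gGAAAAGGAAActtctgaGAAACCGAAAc
Ddx58: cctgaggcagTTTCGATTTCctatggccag
Eif2ak2: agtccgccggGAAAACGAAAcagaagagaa
They lie at chr19:34583353-34583436 (Ifit3, plus strand), chr3:142530263-142530312 (Gbp7, plus strand), chr7:141010715-141010743 (Ifitm3, minus strand), chr4:40239804-40239833 (Ddx58, minus strand) and chr17:78882535-78882564 (Eif2ak2, minus strand). The Ifit3 and Ifitm3 stretches each hold the letters in 2 places. The letters lie before the annotated start in Ifit3 and Gbp7, and reach past it in Ifitm3, Ddx58 and Eif2ak2.

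In DQD cells 80 genes rose and 77 fell against VEC, together 0.814% of the genes tested (0.415% higher and 0.399% lower). Centring each array on its median turned this split into 301 higher and 37 lower. The rises reached 2.86 and were at least 2-fold for 16 genes, whereas 1 fall was that large. Their median size was 0.42 for rises and -0.37 for falls, beside a median of -0.05 over all genes. Of the called genes, 155 had an adjusted p of 0.045 or more, and a further 1496 genes under 0.1 were not called. Before adjustment 4628 genes lay under 0.05 in the limma test, of which 1436 were higher and 3192 lower in DQD. The count of calls moved widely with single arrays. It was 2 without DQD A, 1 without DQD B and 2 without DQD C. It was 219 without VEC A, 20 without VEC B, 1 without VEC C and 616 without WT A. All 157 genes kept their sign under each of these. Of the 157, 0 had overlapping DQD and VEC arrays to begin with, so a kept sign adds little.

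The arrays also differed in the shape of their value distributions, which bears on the smaller changes. The SD over all probe sets was 2.392, 2.412 and 2.37 on DQD arrays A, B and C, against 2.359, 2.331 and 2.327 on the VEC arrays. The medians were 6.306, 6.312 and 6.332 on DQD arrays and 6.372, 6.395 and 6.386 on VEC arrays. With the genes cut into 5 equal groups by mean level, the median difference was -0.09, -0.13, -0.09, 0.06 and 0.04 going from the dimmest to the brightest group. The falls lay mostly among dim genes, with 15 in the dimmest group and 34 in the next. In the brightest group and the one before it there were 18 and 31 rises. Quantile normalization over the 15 arrays, repeated here, brought all 5 medians to between -0.03 and 0 and left 1 gene called, Folh1. The part of this difference in shape in the single calls was not tested.

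**Figure D1:**
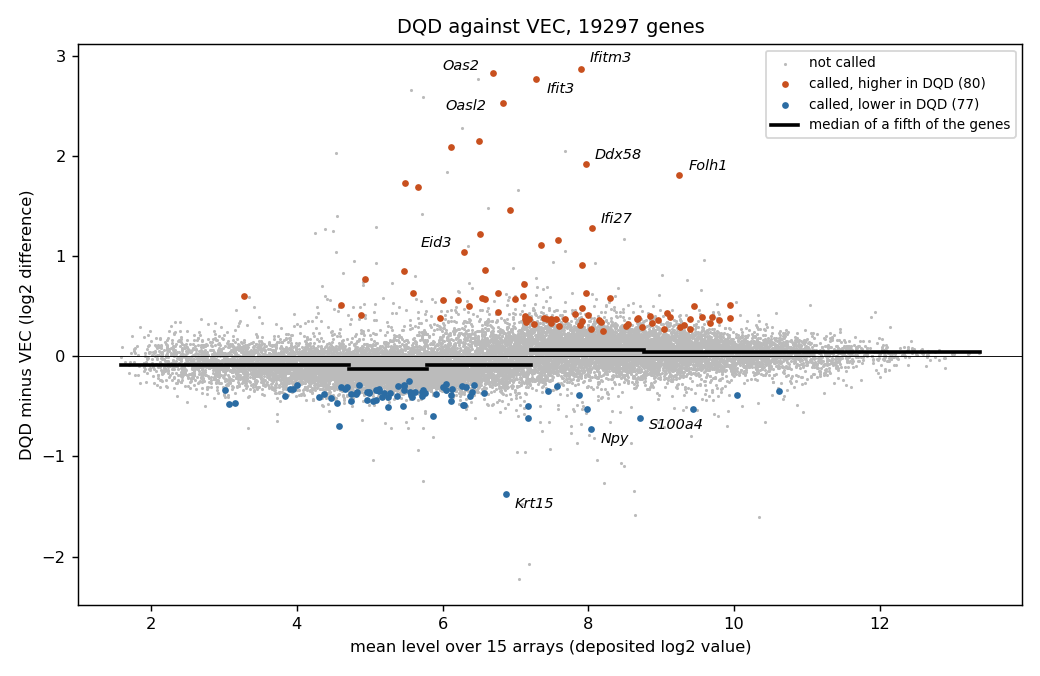
Each point is 1 of 19297 genes, placed by its mean deposited log2 value over the 15 arrays and by its log2 difference DQD minus VEC; orange points rose (80), blue points fell (77), and black bars give the medians of 5 equal groups of genes by level. The rises of interferon-stimulated genes and Folh1 stand well above the bulk, most falls lie close to it, and the medians run from -0.09 and -0.13 at low levels to 0.06 and 0.04 at high levels.

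The targeted gene itself differed little. The Twist1 probe set read 6.62, 6.74 and 6.97 on DQD arrays A, B and C, against 6.45, 6.71 and 6.13 on VEC arrays. The groups overlap, since DQD A lies below VEC B. The difference was 0.35 (SE 0.151) and did not pass the test (limma, adjusted p = 0.183). Whether this probe set reads the introduced Twist1 is not stated in any source at hand, and so it does not check the labels. With the Twist1 value as a covariate, 1 gene stayed under the threshold, again Folh1.

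Folh1 showed the best supported change. It encodes prostate-specific membrane antigen, a cell surface carboxypeptidase of prostate epithelium that is used as a target for imaging and therapy. Folh1 read 10.15, 9.88 and 10.02 on DQD arrays and 8.48, 7.92 and 8.22 on VEC arrays. Every DQD array lies more than 1 log2 unit above the highest VEC array, and the groups are tight. The difference was 1.81 (SE 0.162, limma adjusted p = 0.000989), with 1.95 within array batch A and 1.73 within batch B. Folh1 was called under 20 of 21 alternative settings, with a difference between 1.67 and 2.03. The exception was batch A alone, with 1 DQD array (difference 1.95, adjusted p = 0.599). Among the 33 measured genes of the luminal prostate list, Folh1 was the 1 that rose and 0 fell. Of all genes, 0.415% rose and 0.399% fell. The list's median was -0.05, the same as for all genes. Abcc4, an efflux pump, differed by 0.17 (adjusted p = 0.0993) and Msmb, a secreted prostate protein, by -0.37 (adjusted p = 0.0606), and neither passed.

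The interferon-stimulated genes made up most of the large rises. Of 48 listed genes 42 were measured, and 13 of them (31%) rose while 0 fell, beside 0.415% of all genes that rose. The median difference over the 42 was 1.10, against -0.05 over all genes. In 33 of the 42 all DQD arrays lay above all VEC arrays, and in 3 all lay below, beside 12.8% and 22.1% of all genes. A further 18 were higher before adjustment only (unadjusted p under 0.05), with adjusted p-values of 0.0506 to 0.108. These are bulk RNA values, in which more cells expressing a gene and more RNA per cell cannot be told apart. The count of 13 was 0 to 1 without any 1 of DQD A, DQD B, DQD C, VEC B or VEC C. It was 18 without VEC A, 25 without WT A, 26 within batch B alone, 0 within batch A alone and 0 after quantile normalization, where the median stayed at 1.12.

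Among the called genes that sense viral RNA or act on it, Oas2 changed furthest. Not all such genes rose, and Ifih1 (-0.115) and Dhx58 (0.128) did not pass. Oas3 (1.834), Oas1a (1.098) and Oasl1 (0.738) were higher but did not pass either. Oas2 and Oas1b belong to the 2′-5′ oligoadenylate synthetases, which activate an RNA-degrading enzyme. Oas2 read 6.91, 8.02 and 8.48 on DQD arrays, against 6.16, 4.75 and 4.02 on VEC arrays. The groups do not overlap, but DQD A and VEC A lie within 1 unit of each other while the other arrays are far apart. The difference was 2.82 (SE 0.578, adjusted p = 0.0493), with 1.45 within batch A and 4.23 within batch B. Oas1b differed by 1.73 (adjusted p = 0.0454) and the related Oasl2 by 2.53 (adjusted p = 0.0474). Ddx58, which encodes the RNA sensor RIG-I, read 7.87, 8.91 and 8.77 on DQD arrays and 7.06, 6.60 and 6.14 on VEC arrays. Again the A arrays of both groups are the closest. Its difference was 1.92 (SE 0.38, adjusted p = 0.048). Trim25, a ubiquitin ligase that activates RIG-I, differed by 0.91 (adjusted p = 0.0454), and Eif2ak2, the kinase PKR that halts translation on binding double-stranded RNA, by 1.16 (adjusted p = 0.0479).

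The called antiviral effectors rose by unlike amounts, and other members of the list hardly moved. Ifitm1 (-0.073), Isg20 (-0.065), Zbp1 (-0.042) and Ifit2 (0.223) did not pass. Ifit1 (2.583) and Mx2 (2.025) differed more but did not pass either. Ifitm3, a membrane protein that blocks virus entry, read 8.43, 8.82 and 9.48 on DQD arrays, against 7.01, 5.92 and 5.21 on VEC arrays. All DQD arrays are at least 1 unit above all VEC arrays, and VEC A is the highest of the VEC arrays. The difference of 2.86 (SE 0.554, adjusted p = 0.0474) was the largest rise called. Ifit3, which binds viral RNA together with other Ifit proteins, read 6.23, 7.91 and 6.99 on DQD arrays and 4.40, 4.90 and 3.52 on VEC arrays, a difference of 2.77 (SE 0.537, adjusted p = 0.0474). Probe sets of the Ifit and Oas families can share near-identical sequence, so single members are uncertain. Ifi27, a small mitochondrial and nuclear envelope protein, read 8.01, 8.59 and 8.45 on DQD arrays and 7.38, 6.93 and 6.92 on VEC arrays. Its groups do not overlap, and its difference of 1.28 (SE 0.162) had the lowest adjusted p of the list, 0.0264. Xaf1, an antagonist of apoptosis inhibitors, rose by 1.69, the ubiquitin ligase Herc6 by 1.46 and the ADP-ribosyltransferase Parp14 by 1.22.

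Of the signalling genes described here Irf9 was called. It read 7.32, 7.91 and 8.02 on DQD arrays and 6.95, 6.59 and 6.37 on VEC arrays, a difference of 1.11 (SE 0.219, adjusted p = 0.048). Stat2 differed by 0.62 (adjusted p = 0.0949) and Irf7, which amplifies interferon production, by 2.28 (adjusted p = 0.069). Usp18, a negative feedback regulator of the receptor, differed by 2.77 (SE 0.66, adjusted p = 0.0601). None of these 3 passed. Isg15 was not analysed here. Irf1, which also answers to interferon gamma and NF-kB, ran the other way, at 7.52, 8.33 and 7.81 on DQD arrays and 9.99, 8.87 and 8.82 on VEC arrays. That difference of -1.34 did not pass (adjusted p = 0.114). Of the antigen presentation list, which interferon also controls, 0 of 17 measured genes were called, beside 0.814% of all genes. In a list of this size 0 says little. At an unadjusted p under 0.05 (limma), 7 were higher and 2 lower, beside 1436 higher and 3192 lower of all 19297 genes. The list's median was 0.21. Its Tap1, the peptide transporter, differed by 0.73 (adjusted p = 0.0792).

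**Figure D2:**
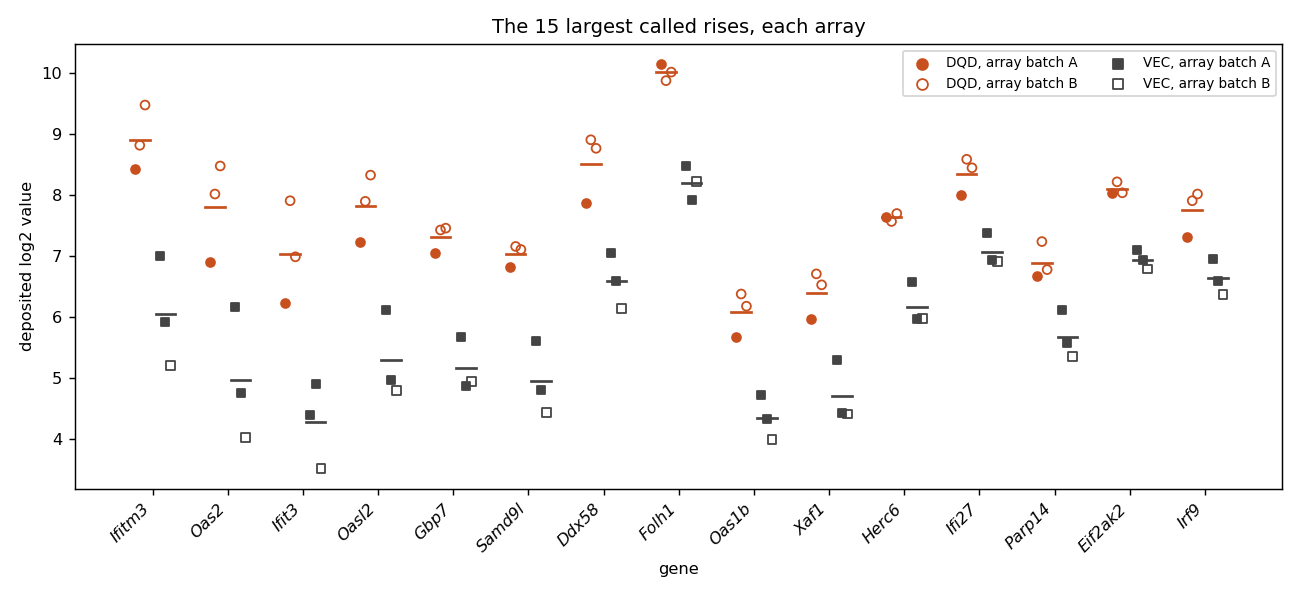
Deposited log2 values of the 15 largest called rises on each array, DQD arrays (orange circles) left of VEC arrays (grey squares), with A, B and C from left to right; filled symbols are array batch A, open symbols batch B, and bars are group means. No gene shown has overlapping groups, as in 0 of the 157 called genes. Of all genes, 12.8% have every DQD array above every VEC array. Folh1 is tight in both groups. For most interferon genes the lowest DQD array and the highest VEC array are both replicate A.

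In both DQD and VEC the A array stood apart from B and C, on the side nearer the other group. Averaged over the 42 interferon genes and set relative to the VEC mean, the list read 0.84, 1.41 and 1.33 on DQD arrays A, B and C, against 0.40, -0.10 and -0.29 on VEC arrays. On arrays A, B and C of the other forms it read 1.1, 0.13 and 0.23 (AQA), 1.1, 1.38 and 1.15 (WT) and 0.91, 1.32 and 1.29 (F191G). In 12 of the 13 genes that rose DQD A was the lowest DQD array, and in 12 VEC A was the highest VEC array. Of the 13, 0 had overlapping groups, so a difference above 0 within both array batches was fixed beforehand. The difference within batch B was the larger in 13 of 13. Batch A sets DQD A against VEC A and VEC B, so this largely restates the low DQD A and the high VEC A. What set VEC A and DQD A apart was not tested.

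Other genes that rose with this group are also known interferon targets or stand outside it. Gbp7, an interferon-inducible GTPase, read 7.06, 7.43 and 7.46 on DQD arrays and 5.68, 4.87 and 4.95 on VEC arrays, a difference of 2.15 (SE 0.398, adjusted p = 0.0454). Samd9l, an antiviral restriction factor, rose by 2.08 (adjusted p = 0.0493). Outside the rule and named after its value was seen, the helicase-like coactivator Helz2 rose by 0.86 (adjusted p = 0.0474). Eid3, a SMC5/6 complex subunit likewise picked after its value was seen, read 6.70, 6.83 and 6.87 on DQD arrays and 5.69, 5.83 and 5.76 on VEC arrays. Its 3 DQD arrays lie within 0.2 of each other and well clear of VEC, with a difference of 1.04 (SE 0.158, adjusted p = 0.0454). Of the 80 rises 62 were in none of the 28 gene lists. Examples chosen after their values were seen are the intraflagellar transport genes Ift74 (0.56) and Wdr19 (0.58), the AMPK-related kinase Nuak1 (0.57) and the proton pump subunit Atp6v1b2 (0.51).

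Single rises came from other lists. Cth, the enzyme that makes cysteine from cystathionine, read 8.37, 8.41 and 8.40 on DQD arrays and 7.84, 7.99 and 7.59 on VEC arrays (difference 0.58, SE 0.108, adjusted p = 0.0454), the 1 called gene of 43 measured in the stress response list. The lysosomal protease Ctso rose by 0.63 (1 of 41 in the lysosome list), the clock repressor Cry1 by 0.37 (1 of 18 in the circadian list) and Ndufb8, a subunit of respiratory complex I, by 0.29 (1 of 42 in the oxidative phosphorylation list). With 1 gene called in each, these counts say little about the lists.

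Krt15, a keratin of basal and progenitor epithelial cells, fell furthest of the called genes. It read 6.77, 6.60 and 6.69 on DQD arrays, against 8.73, 7.56 and 7.90 on VEC arrays. The DQD arrays sit together while the VEC arrays are spread over more than 1 unit, without overlap. The difference was -1.38 (SE 0.264, adjusted p = 0.0474), with -1.38 within batch A and -1.25 within batch B. Krt19, another keratin, read 6.29, 6.53 and 6.35 on DQD arrays and 10.28, 7.15 and 8.42 on VEC arrays. VEC A is more than 3 units above VEC B, and the difference of -2.23 (SE 0.536) did not pass (adjusted p = 0.0604). The luminal keratin Krt8 differed by -0.57 (adjusted p = 0.194), Krt18 by -0.28 (0.0681 adjusted p) and the basal keratin Krt14 by -0.71 (adjusted p = 0.0761). VEC A was the highest VEC array for Krt8, Krt14, Krt15 and Krt19. Of the 46 measured genes of epithelial junctions and keratins, 0 rose and 1 fell, beside 0.415% and 0.399% of all genes. The list's median was -0.15. Cdh1, the junction protein E-cadherin, differed by -0.21 (adjusted p = 0.0865) and Epcam by -0.14 (adjusted p = 0.25).

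The calcium-binding proteins S100a4 and S100a16 fell. S100a4, a metastasis-associated protein on the mesenchymal list, read 8.33, 8.53 and 8.44 on DQD arrays and 9.33, 8.80 and 9.03 on VEC arrays. The lowest VEC array lies above the highest DQD array by a small margin. Its difference was -0.62 (SE 0.115, adjusted p = 0.0459). S100a16 read 9.49, 9.22 and 9.48 on DQD arrays and 10.03, 9.89 and 9.85 on VEC arrays, a difference of -0.53 (SE 0.093, adjusted p = 0.0454). Fxyd5, the sodium pump regulator dysadherin, fell by 0.60 on the log2 scale (adjusted p = 0.0495). S100a4 was the 1 called gene among 36 measured EMT factors and mesenchymal markers, whose median was -0.08. Of all genes, 0.814% were called. Vim (0.07), Fn1 (-0.04), Cdh2 (-0.17), Snai1 (-0.24), Snai2 (-0.01), Zeb1 (-0.05) and Zeb2 (0.19) did not pass. Their adjusted p-values ran from 0.0724 for Snai1 and 0.0777 for Zeb2 to 0.975 for Snai2.

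Npy, which encodes neuropeptide Y, read 7.91, 7.73 and 8.04 on DQD arrays and 8.39, 8.80 and 8.67 on VEC arrays. The groups are separate and each is tight, with a difference of -0.72 (SE 0.119, adjusted p = 0.0454). Aldh1a3, which makes retinoic acid from retinaldehyde, read 6.97, 7.01 and 7.24 on DQD arrays and 7.56, 7.56 and 7.59 on VEC arrays (difference -0.50, SE 0.0797, adjusted p = 0.0454). The DNA and RNA binding protein Tsnax fell by 0.62, the secreted ligand Wnt6 by 0.48 and Cemip, a hyaluronan-degrading factor, by 0.45. Lama4, a laminin chain, fell by 0.45 and was the 1 called gene of 45 collagens and matrix proteins. That list had a median of -0.15, and 0.814% of all genes were called. The remaining named falls were Ly6g6g (-0.51), Vpreb1 (-0.50), the kallikrein Klk1b9 (-0.47) and the clock and bHLH repressor Bhlhe41 (-0.46). Of the 15 named falls 11 were in the 3 dimmest of the 5 level groups, where the median gene was also lower in DQD.

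Enzymes of sterol synthesis were among the falls. Mvd, which makes isopentenyl diphosphate, read 7.85, 7.78 and 7.73 on DQD arrays and 8.07, 8.50 and 8.37 on VEC arrays (difference -0.52, SE 0.105, adjusted p = 0.048). Dhcr7, the last step to cholesterol, fell by 0.39 on the log2 scale (adjusted p = 0.0474), and Pmvk, phosphomevalonate kinase, by 0.30 (adjusted p = 0.0493). They were 3 of 33 measured genes of cholesterol and fatty acid synthesis, of which 0 rose, beside 0.399% of all genes that fell. The list's median was -0.14, and 4 of the 33 had a difference above 0. Hmgcs1, the condensing enzyme of the pathway, read 8.05, 7.72 and 7.69 on DQD arrays and 7.84, 8.72 and 8.49 on VEC arrays, where DQD A lies above VEC A. Hmgcs1 (-0.53, adjusted p = 0.115) and the sterol oxidase Msmo1 (-0.52, adjusted p = 0.0766) did not pass, and the regulators Srebf1 (0.00) and Srebf2 (0.01) were close to 0. The count of 3 was 0 without any 1 of DQD A, DQD B, DQD C, VEC B or VEC C, 5 without VEC A and 0 after quantile normalization.

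**Figure D3:**
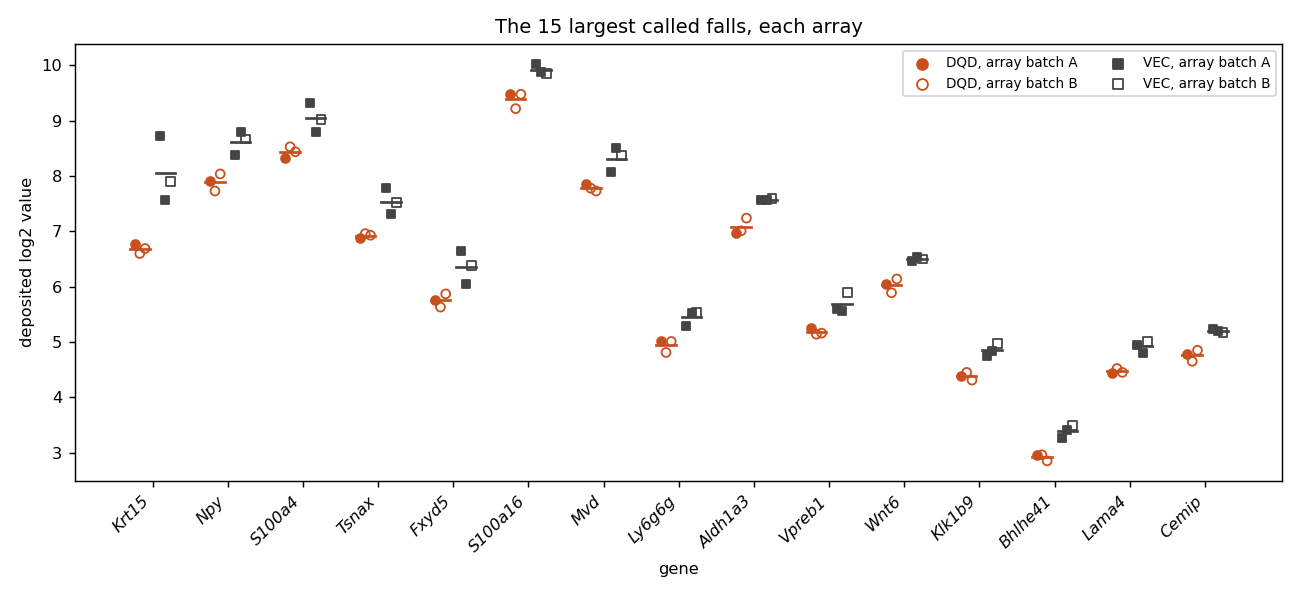
Deposited log2 values of the 15 largest called falls on each array, DQD arrays (orange circles) left of VEC arrays (grey squares), with A, B and C from left to right; filled symbols are array batch A, open symbols batch B, and bars are group means. Krt15 has the largest difference (-1.38) and the other means differ by less than 1 unit. The groups overlap in none of the 15 genes, as in 0 of the 157 called genes. Of all genes, 22.1% have every DQD array below every VEC array.

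Targets of NF-kB, the inflammatory transcription factor, had some of the largest differences that did not pass. Nfkbia, its inhibitor and early target, read 9.20, 9.82 and 9.50 on DQD arrays, against 11.59, 10.98 and 10.78 on VEC arrays. The groups are almost 1 unit apart at their closest, yet the difference of -1.61 (SE 0.375) had an adjusted p of 0.0564 (limma). The neutrophil chemokine Cxcl2 read 6.06, 6.71 and 6.37 on DQD arrays and 8.49, 8.58 and 8.28 on VEC arrays (difference -2.07, adjusted p = 0.0721). Cxcl1 differed by -1.58 (adjusted p = 0.0932), Cxcl5 by -0.53 (adjusted p = 0.0604) and the chemokine Ccl5, which interferon also induces, by 1.48 (adjusted p = 0.0577). Of 56 measured cytokines, chemokines and NF-kB genes 0 were called, beside 0.814% of all genes, with a median of -0.12. At an unadjusted p under 0.05 (limma), 13 were lower and 1 higher, beside 3192 lower and 1436 higher of all 19297 genes.

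Proliferation genes gave no calls, but with 0.814% of all genes called, 0 in lists of this size says little. Of 43 DNA replication genes and 41 mitosis genes, 0 passed in either direction. In both lists 0 were under 0.05 without adjustment (limma), beside 1436 of all 19297 genes higher and 3192 lower. The medians of these lists were 0.04 and 0.16. The Myc target and ribosome biogenesis list had 0 of 42 called, with a median of 0.02. Myc, which the line carries as a transgene, read 10.23, 10.33 and 10.25 on DQD arrays and 9.56, 9.94 and 10.08 on VEC arrays (difference 0.41, adjusted p = 0.139). Whether the Myc probe set reads the transgene is not stated in any source at hand. Among bHLH partners, the E proteins Tcf3 (0.07) and Tcf12 (0.17) and the inhibitor Id1 (0.61, adjusted p = 0.0696) did not pass. Bhlhe41 was the 1 of 47 listed bHLH genes that fell. Hoxd3 (-0.36, adjusted p = 0.0454) was the 1 of 41 Hox genes and cofactors, and Hoxa9 differed by 0.00. Over all 28 lists, 18 of 1084 measured genes rose and 10 fell, beside 0.415% and 0.399% of all genes. In 14 lists 0 were called, and 0 or 1 call in a list of this size says little about it.

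The labelled cell type was set beside its markers. Foxa1, a luminal transcription factor, averaged 11.18 ± 0.05 in DQD and 11.18 ± 0.09 in VEC (SD, n = 3 each), Hoxb13 7.62 ± 0.06 and 7.20 ± 0.24, and Krt8 7.63 ± 0.14 and 8.20 ± 0.66. Krt18 averaged 5.61 ± 0.03 in DQD and 5.89 ± 0.14 in VEC, Cdh1 5.45 ± 0.08 and 5.66 ± 0.05, and Epcam 4.95 ± 0.11 and 5.09 ± 0.06. No detection calls were used, so these values do not separate expressed from silent genes. Among markers of other cells, 0 of 26 haematopoietic and 0 of 30 endothelial and fibroblast genes were called, beside 0.814% of all genes. Their list means relative to VEC were -0.13 to -0.09 in DQD and -0.03 to 0.03 in VEC for haematopoietic genes, and -0.20 to -0.05 in DQD and -0.02 to 0.01 in VEC for endothelial and fibroblast genes. Of 28 neural and neuroendocrine genes 1 fell (Npy), with list means of -0.12 to -0.06 in DQD and -0.03 to 0.02 in VEC. These 3 lists are dim, with median DQD levels of 4.98, 5.3 and 5.48. Over all genes, the level group from 4.72 to 5.78 had a median difference of -0.13. After quantile normalization the medians of the 3 lists were -0.01, -0.04 and 0.

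DQD was set against the other Twist1 forms directly, which removes VEC from the difference. Between DQD and AQA 5 genes were called (0.0259% of those tested), 4 higher and 1 lower in DQD. Folh1 read 10.15, 9.88 and 10.02 on DQD arrays and 8.37, 8.97 and 8.88 on AQA arrays, without overlap, a difference of 1.27 (SE 0.162, adjusted p = 0.0179). Atp6v1b2 was higher in DQD by 0.63 (SE 0.0768, adjusted p = 0.0179) and Dcps, an enzyme that hydrolyses mRNA caps, differed by -0.56 (SE 0.0626, adjusted p = 0.0131). The transcription factor subunit Gtf2h1 (0.54) and the scaffold protein Dlg5 (0.43) were also higher in DQD. Between DQD and F191G 1 gene was called (0.00518%), the sphingosine phosphate receptor S1pr2 (-0.54), and 1746 lay under an unadjusted p of 0.05. Between DQD and WT 4735 genes were called (24.5%), 2272 higher and 2463 lower (3677 and 999 after median centring). That count was 2118 without WT A, 0 without DQD A, 3122 without DQD B and 0 in a fit of only the DQD and WT arrays.

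For the interferon genes, 0 of 42 were called between DQD and AQA, beside 0.0259% of all genes, with a median of 0.70. At an unadjusted p under 0.05 (limma), 28 were higher and 2 lower in DQD, beside 1279 higher and 1532 lower of all 19297 genes. Between DQD and WT 1 rose (Herc6, 0.94, adjusted p = 0.0355) and 4 fell, among them Ifit3 (-2.25, adjusted p = 0.0168), with a median of 0.12, beside 11.8% of all genes higher and 12.8% lower in that comparison. Between DQD and F191G 0 were called and the median was 0.04. Each form's own comparison shares the 3 VEC arrays, so the following values stand side by side and are not independent. The median over the 42 genes was 1.10 for DQD, 0.34 for AQA, 1.0 for WT and 1.06 for F191G, each minus VEC. The AQA arrays were unlike, with list means relative to VEC of 1.1, 0.13 and 0.23 on A, B and C. AQA A lay above DQD A (0.84), and AQA B and C lay below the highest VEC array (0.4). Genes called higher numbered 13 in DQD, 3 in AQA (0.513% of all genes), 27 in WT (7.06%) and 2 in F191G (0.0466%). Folh1 differed from VEC by 1.81 in DQD, 0.54 in AQA, 1.44 in WT and 1.43 in F191G. Krt15 differed from VEC by -1.38 in DQD, -1.66 in AQA, -1.73 in WT and -1.19 in F191G. Of the 30 named genes, 1 was called between DQD and AQA (Folh1), 8 between DQD and WT and 0 between DQD and F191G.

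**Figure D4:**
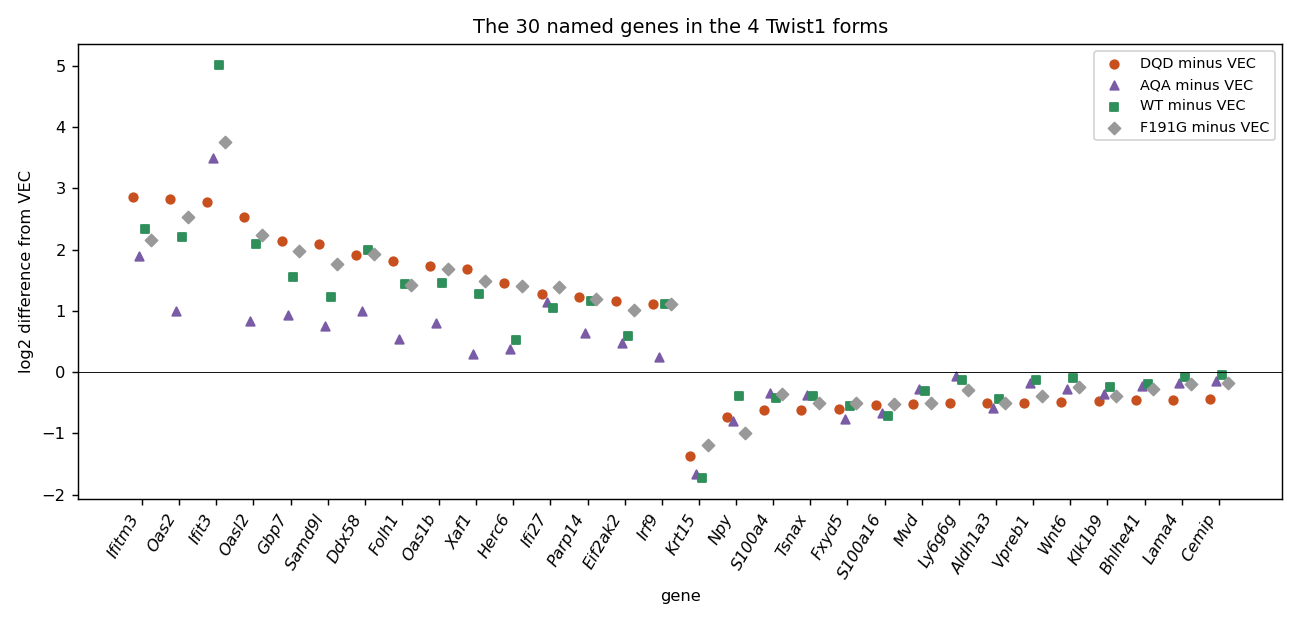
Log2 differences from VEC for the 15 largest called rises and 15 largest called falls of DQD, shown for DQD (circles), AQA (triangles), WT (squares) and F191G (diamonds); the genes were chosen on the DQD values and all 4 forms share the 3 VEC arrays. Folh1 stands at 1.81 in DQD, 0.54 in AQA, 1.44 in WT and 1.43 in F191G, and Ifit3 at 2.77 in DQD, 3.49 in AQA, 5.02 in WT and 3.76 in F191G.

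**Figure D5:**
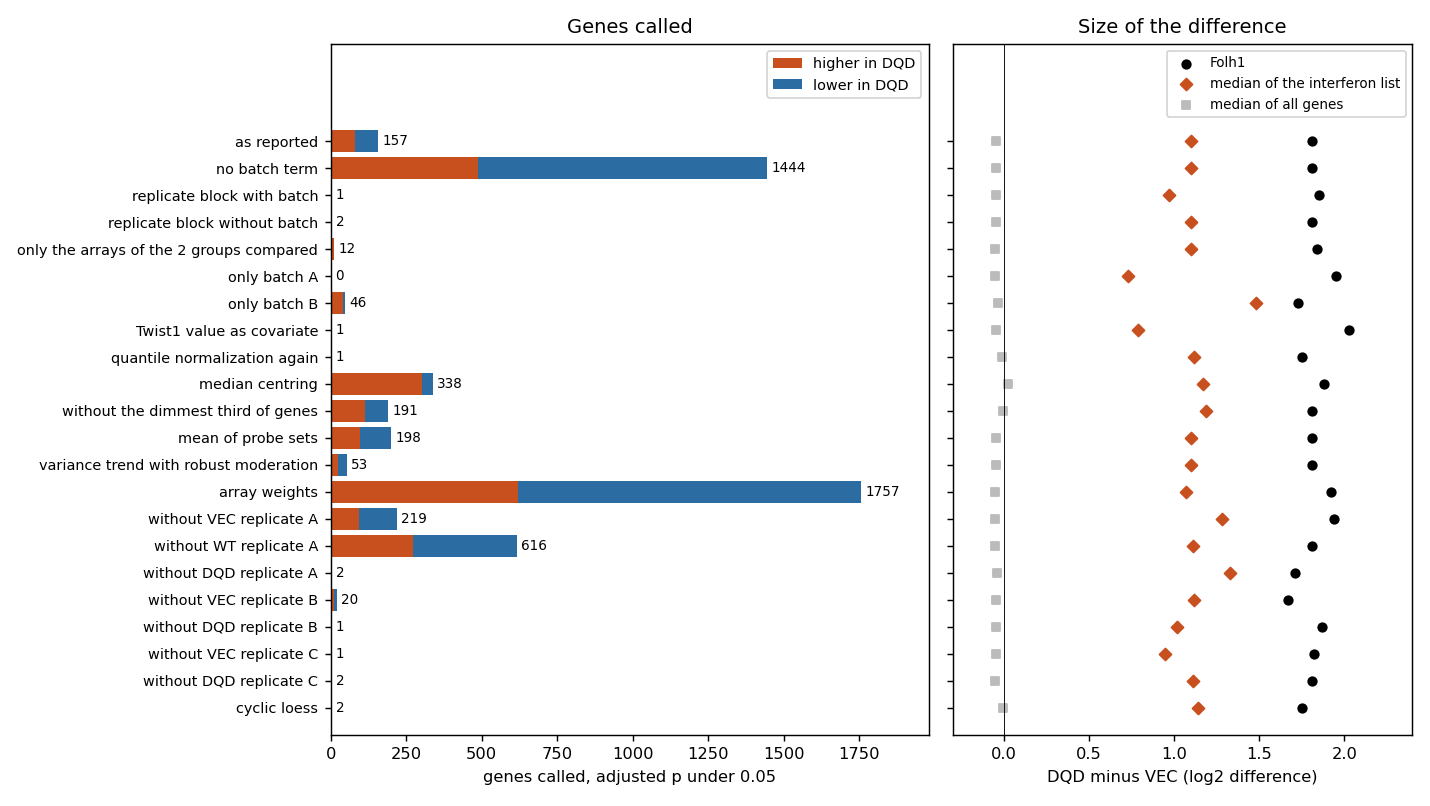
Left, the number of genes called between DQD and VEC under each processing setting, split into higher (orange) and lower (blue) in DQD; right, the log2 difference DQD minus VEC of Folh1 (circles), the median of the 42 interferon genes (diamonds) and the median of all genes (squares). The count runs from 0 to 1757 while Folh1 stays between 1.67 and 2.03 and the interferon median between 0.73 and 1.48.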

How the data were processed

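The series has 15 one-colour Affymetrix Mouse Gene 1.0 ST arrays, 3 in each of 5 groups. For 23811 probe sets the authors deposited log2 values, and the submitters' processing notes name RMA and limma without versions. A normalization by Twist1 expression is mentioned in the design text, and neither its form nor its effect on the values is known here. A batch term fitted to the deposited log2 values was 0 in every probe set (largest size 5e-09), so the labelled array batch had been taken out with the groups kept before deposit. Batch A holds 1 DQD and 2 VEC arrays and batch B 2 DQD and 1 VEC. The term was kept in the model because that removal used up 1 degree of freedom.

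Probe sets with 1 symbol were kept (20852, of which 20805 matched RefSeq by gene identifier), and the brightest was used for each of 19297 genes. Probe sets with several (1440) or no listed symbols (1519) were tested apart. Models with group and batch were fitted to all 15 arrays in R 4.3.3 with limma 3.58.1 (9 residual and 3.93 prior degrees of freedom). The fit was also run on simulated data with independent noise for each gene. Those data lacked the differences in array shape, so they say nothing about how the counts move with the settings. Adjusted p-values follow Benjamini and Hochberg. The number of arrays limits the precision. Named genes are the 15 largest called rises and falls, for each list described up to 4 genes of lowest p, markers of the cell type, a set of Twist1, EMT and other genes, and the 4 largest calls each way between forms. Names of predicted genes were passed over (13 called). The comparison, gene lists and named genes were chosen with earlier results of these data known. Alternatives changed the batch term, replicate block, arrays used, normalization, filter on dim genes, probe set choice and variance model. Cyclic loess was added after seeing the data. Figures were drawn with matplotlib 3.10.9.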

Additional observations from a re-analysis of the deposited data

Results flagged for a closer look

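A total of 6 genes differed between DQD and another mutant form in a direct test of the difference (limma, Benjamini-Hochberg adjustment). Between DQD and AQA these were Folh1 (1.27), Atp6v1b2 (0.63), Gtf2h1 (0.54), Dlg5 (0.43) and Dcps (-0.56), each as DQD minus AQA. Folh1 averaged 10.01 ± 0.13 in DQD and 8.74 ± 0.32 in AQA, and Dcps 9.78 ± 0.01 in DQD and 10.34 ± 0.06 in AQA (SD, n = 3 each). Gtf2h1 averaged 9.04 ± 0.08 in DQD and 8.50 ± 0.03 in AQA. Between DQD and F191G the gene was S1pr2 (-0.54). Between DQD and WT 4735 genes differed, and 2118 did without WT A, the array that correlates least with the others.

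Among probe sets that name no single gene, 22 were called between DQD and VEC when all 23811 probe sets were tested together, where 322 were called in all. Of the 22, 9 carry several symbols and 13 have none listed, and they were used in no comparison above.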

How the results depend on the processing

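All 157 genes called between DQD and VEC kept their sign under every alternative in which they were tested. Of the 157, 0 had overlapping groups, so most of these settings could hardly turn a sign. Of the 68 called genes followed individually, 0 were called under each of the 21 alternatives. The counts below were all made with limma. Without the batch term 1444 genes were called, a value that by construction ignores the degree of freedom spent when batch was removed before deposit. Same-letter correlations of deviations between DQD and VEC arrays were -0.25, 0.01 and -0.05, and different-letter ones ran from -0.31 to 0.41. Deviations from a group mean sum to 0 and batch had already been removed, so this check cannot decide whether the letters pair the arrays. With the replicate block the count was 1 (with batch) or 2 (without batch). It was 12 with only the 6 arrays compared, 0 in batch A (1516 at an unadjusted p under 0.05), 46 in batch B, 1 with Twist1 as a covariate, 1 after quantile normalization, 338 after median centring, 53 with a variance trend and robust moderation, 1757 with array weights and 2 after cyclic loess. Leaving out single arrays gave 1 to 616.

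In the same order of settings, the 28 called list genes became 108 without batch, 1 or 2 with the replicate block, 6 with only the arrays compared, 0 in batch A, 1 with the Twist1 covariate, 1 after quantile normalization, 10 with the variance trend, 135 with array weights and 2 after cyclic loess, and 1 to 65 when single arrays were left out. The 13 interferon genes became 27, 0 or 1 with the replicate block, 3, 0 in batch A, 26 in batch B, 0 with Twist1, 0 after quantile normalization, 22 after median centring, 2 with the variance trend, 27 with array weights and 1 after cyclic loess, and 0 to 25 without single arrays. The 3 sterol genes became 0 with the replicate block, with only the arrays compared, in either batch, with Twist1, after quantile normalization, with the variance trend and after cyclic loess, 1 after median centring and 5 with array weights, and 0 to 5 without single arrays.

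For DQD against AQA the 5 calls became 156 without batch, 0 or 3 with the replicate block, 21 with only the arrays compared, 0 in batch A, 29 in batch B, 2 after quantile normalization, 28 after median centring, 16 without dim genes, 1670 with array weights and 1 after cyclic loess, and 0 to 162 without single arrays. For DQD against WT the 4735 calls became 2646 with the replicate block and batch, 0 with only the arrays compared, 0 in batch A and 330 in batch B, and 0 to 5353 without single arrays. For DQD against F191G the 1 call became 0 with the replicate block, with only the arrays compared, in either batch, with Twist1 and after median centring, and 2 with array weights, and 0 to 1 without single arrays. The cause of these shifts was not tested. Single genes followed across settings and comparisons kept their call status in 2587 cases, lost a call in 898 and gained one in 137.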

Other observations

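Several gene lists not described above held no called gene between DQD and VEC (limma), where 0.814% of all genes were called. At an unadjusted p under 0.05 (limma), 1436 of all 19297 genes were higher and 3192 lower, so falls outnumbered rises over all genes too. Of 29 measured p53 targets and cell cycle inhibitors 0 were called, with a median of 0.09, and 4 were higher and 2 lower at an unadjusted p under 0.05. Plk3, a stress-responsive kinase, read 9.18, 9.44 and 9.27 on DQD arrays and 8.55, 9.08 and 8.87 on VEC arrays (difference 0.46, adjusted p = 0.0757). Gadd45a, a gene of the DNA damage response, differed by 0.42 (adjusted p = 0.0919). Of 38 Nrf2 and antioxidant genes 0 were called by limma, with 5 higher and 4 lower before adjustment. Of 42 hypoxia and glycolysis genes 0 were called by limma, with 2 higher and 7 lower before adjustment. Hexokinase Hk1 differed by 0.32 (adjusted p = 0.0872) and the hypoxia factor Epas1 by -0.27 (adjusted p = 0.0709).

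Of 56 growth factors and receptor kinases 0 were called by limma, with 3 higher and 12 lower before adjustment, among them Igf2 (-0.30, adjusted p = 0.0523) and Fgfr1 (-0.30, adjusted p = 0.0564). Of 36 integrin and focal adhesion genes 0 were called by limma, with 1 higher and 4 lower before adjustment, the higher one being the cytoskeletal kinase Rock1 (0.33, adjusted p = 0.0526). Of 46 TGF-beta and BMP genes 0 were called by limma, with 6 higher and 6 lower before adjustment. The clock repressor Nr1d1 differed by -0.60 and did not pass (adjusted p = 0.0669).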
